A study of Mus musculus with 2 samples.

Results

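S-phase melanoma cells are described here in 1 pooled droplet run of B16F10 cells, a mouse melanoma line, that had been recovered from host tissue. A barcode of the RNA library was taken as an S-phase cell when it held at least 1000 genes and at most 15% mitochondrial UMIs (unique molecular identifiers, 1 per captured transcript), when 12 S genes (Pcna, Mcm2, Mcm3, Mcm4, Mcm5, Mcm6, Mcm7, Tyms, Rrm2, Gins2, Hells and Uhrf1) summed to at least 5 UMIs, and when 10 M genes (Top2a, Mki67, Ube2c, Birc5, Cenpf, Prc1, Nusap1, Cdca8, Tpx2 and Ccnb1) summed to at most 3. The cells were thus selected on the measured UMIs of these 22 genes. Of 15961 barcodes, 9644 passed the filter and 895 of these (9.28%, 95% exact binomial interval 8.71 to 9.88) met both sums. The cells came from 3 sources, each stained with its own hashtag antibody: lung tumours of wild-type (WT) hosts, lung tumours of Prf1-/- hosts, and knees of Prf1-/- hosts, called Prf1-/- bone below. Prf1 encodes perforin, the pore-forming protein with which cytotoxic lymphocytes kill, so the genotype is that of the host and not of the tumour cell. Lung tissue was digested for 20 minutes and crushed knees for 30 minutes at 37 °C, so site and digestion cannot be told apart, and all cells were sorted as GFP+, CD45- and DAPI-. The number of mice behind each source and the time since the tumour cells were given are not stated in the sources used here. Each condition is 1 hashtag in 1 run, so no test between conditions was possible, and all intervals below cover counting error only.

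Cells in S phase copy their genome once. The MCM2-7 helicase is loaded on origins in G1 by ORC, CDC6 and CDT1 (licensing), is activated with CDC45 and GINS, and is followed by polymerases that are held on DNA by the PCNA clamp. Deoxynucleotides come from ribonucleotide reductase (Rrm1, Rrm2), thymidylate synthase (Tyms) and other enzymes. Many of these genes are transcribed at the G1-S transition by E2F factors once cyclin-CDK activity has released them from the retinoblastoma proteins, and the transcripts of mitosis build up later, towards G2.

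The proximal promoters of 3 genes of the rule and of 2 other genes high in these cells are shown because they carry the letters to which E2F factors are known to bind. The 8-letter motifs searched on both strands were TTTCCCGC, TTTGGCGC, TTTCGCGC and TTTGCCGC, in windows from 250 bases before to 50 after each gene's start (RefSeq, GRCm38.p6). Each line below gives 200 bases, 5′ to 3′ along the gene's own strand, from 170 before to 30 after the start, with motif matches in capitals. The Mcm6 window is chr1:128359676-128359875 on the minus strand. The other windows lie on the plus strand, at chr8:75109339-75109538 for Mcm5, chr19:38930820-38931019 for Hells, chr11:98907981-98908180 for Cdc6 and chr9:65890153-65890352 for Pclaf.
Mcm6: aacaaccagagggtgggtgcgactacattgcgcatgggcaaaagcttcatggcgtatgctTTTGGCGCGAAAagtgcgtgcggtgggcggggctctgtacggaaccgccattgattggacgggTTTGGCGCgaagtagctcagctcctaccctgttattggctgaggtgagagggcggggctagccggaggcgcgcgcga
Mcm5: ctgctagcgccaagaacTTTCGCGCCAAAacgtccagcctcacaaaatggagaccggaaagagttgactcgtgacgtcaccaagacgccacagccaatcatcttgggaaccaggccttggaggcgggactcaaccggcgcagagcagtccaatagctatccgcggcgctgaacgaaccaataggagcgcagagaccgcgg
Hells: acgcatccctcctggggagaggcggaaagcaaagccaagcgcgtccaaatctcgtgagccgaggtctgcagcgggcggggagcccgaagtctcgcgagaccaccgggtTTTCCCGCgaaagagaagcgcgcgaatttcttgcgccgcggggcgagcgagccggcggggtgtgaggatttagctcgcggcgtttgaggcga
Cdc6: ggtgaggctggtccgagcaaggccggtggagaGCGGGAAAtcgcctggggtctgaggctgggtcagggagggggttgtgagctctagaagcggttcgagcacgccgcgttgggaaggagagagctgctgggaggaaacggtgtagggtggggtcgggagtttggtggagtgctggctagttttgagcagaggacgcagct
Pclaf: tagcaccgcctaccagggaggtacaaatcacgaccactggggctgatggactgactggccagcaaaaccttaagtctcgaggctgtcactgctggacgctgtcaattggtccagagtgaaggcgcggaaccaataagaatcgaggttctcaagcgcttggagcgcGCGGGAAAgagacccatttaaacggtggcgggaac

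In Mcm6 there were 3 matches, beginning 110, 106 and 47 bases before the start, of which the first 2 overlap on opposite strands and form 1 capital run. Mcm5 had 2 overlapping matches, at 153 and 149 bases before the start. Hells, Cdc6 and Pclaf had 1 each, at 62, 138 and 5 bases before the start. No match lay in the windows of Pcna, Tyms, Fbxo5, Rad51ap1 or E2f1, which says only that these letters are not in those windows. Of the 12 S genes, 10 were in the promoter table, and 6 of them held a match (Mcm3, Mcm5, Mcm6, Mcm7, Hells and Uhrf1). None of the 9 M genes in the table held one. Across the whole table, 704 of 27025 genes did (2.605%), a gene being counted when any of its windows held a match. By window it was 744 of 32851 (2.26%). Among genes outside the rule that stood at least 1.5-fold higher in S-phase cells than in cells with both sums low, 70 of 361 matched genes held a motif (19.4%, 15.4 to 23.9), against 254 of 5535 measured genes that were neither higher nor lower (4.59%) and 7 of 289 that were lower (2.42%). In the fixed lists described below, the motif was in 6 of 16 licensing genes, in 9 of 26 polymerase and fork genes, in 4 of 12 checkpoint genes, in 4 of 20 recombination and repair genes, in 5 of 26 chromatin copying genes, in 6 of 21 genes of the G1-S and E2F list and in 7 of 66 mitosis genes. Of 21 nucleotide supply genes only 1, Ppat, held it, close to the share of genes that were neither higher nor lower.

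The S genes of the rule are given as a description, since they chose the cells. Levels here are CPM, UMIs per 1000000 UMIs outside the 22 rule genes. Pcna stood at 267 CPM and was seen in 56.5% of S-phase cells, Mcm5 at 145 CPM in 36.0%, Mcm6 at 199 CPM in 45.6% and Tyms at 179 CPM in 41.2%. No cell held all 12 genes. The median cell held 5 of them and the range was 2 to 11, and the median S sum was 7 UMIs with a maximum of 22. Within the allowed M sum, Top2a, which untangles replicated DNA, made up 26.2% of the UMIs, Birc5 19.1% and Cdca8 13.4%. Just below the S threshold lay 350 cells with an S sum of 4, and just above it 221 with a sum of 5. The replication lists outside the rule summed to 4369 CPM in the former and 4910 CPM in the latter. Just inside the M threshold lay 219 cells with an M sum of 3 and just outside it 181 cells with a sum of 4. Their mitosis genes outside the rule summed to 8151 and 8408 CPM, so the cells on the 2 sides of each threshold lie close together. The classes are ranges of 2 transcript sums; DNA content was not measured here.

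**Figure D1:**
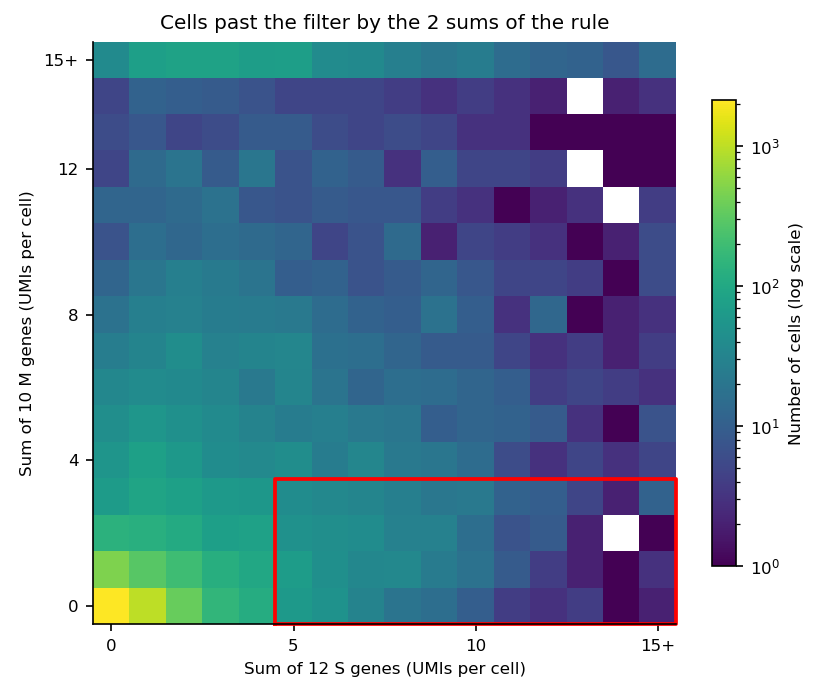
Number of filtered cells (colour, log scale) at each sum of the 12 S genes (horizontal, UMIs per cell) and of the 10 M genes (vertical, UMIs per cell), with 15 standing for 15 or more and white for no cell. The red box holds the 895 S-phase cells; the cells run on without a gap across its left and upper edges.

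The other filtered cells fell into 5793 low-low cells (S sum under 5, M sum at most 3), 1290 both-high cells (S sum at least 5, M sum above 3) and 1666 M-high cells (S sum under 5, M sum above 3). A fixed UMI threshold favours deep cells: S-phase cells had a median of 2996 UMIs (1608 to 8834), low-low cells 2347 and both-high cells 3610. The share of S-phase cells was 3.76% among the 2419 barcodes with the fewest UMIs and 14.2% among the 2408 with the most. Every S-phase cell held UMIs of the 9 melanoma marker genes, with a median of 33. These genes summed to 11269 CPM against 13458 in low-low cells. The lead pigment genes were Pmel at 2901 CPM in S-phase cells and 3650 in low-low cells, and Dct at 3053 and 3931 CPM. Of the genes of T and NK cells 0 of 10 were seen, and of neutrophil genes 0 of 8, which allows up to 1.07 CPM each at a limit of 3 UMIs. The lung epithelial list summed to 13.5 CPM against 52.2 in low-low cells (8 of 14 and 11 of 14 genes seen, most of it Sftpc), the fibroblast and stroma list to 6.06 against 43.6, the bone list to 16.8 against 33.4, the myeloid list to 3.56 against 11.1, the pan-immune list to 5.35 against 6.69, the B and plasma cell list to 1.43 against 2.39, and the endothelial list to 71.3 against 69.0 with 98.5% of it Eng. Erythroid and platelet genes summed to 34.2 against 3.48 CPM, but 50 and 43 of those 96 UMIs lay in 2 cells. As a measure of S transcripts outside melanoma cells, 79 barcodes with at least 10 lung epithelial UMIs, of median depth 580 UMIs, held 308 S UMIs per 1000000 UMIs, low-low cells 382 and S-phase cells 2365. Of the 79, 6 passed the cell filter and none was called an S-phase cell. Whether those UMIs were free RNA, mixed droplets or the barcodes' own was not tested.

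Against low-low cells, most measured transcripts of DNA copying stood higher in S-phase cells. Lower were 3 of 10 D cyclins and CDK inhibitors, 8 of 16 p53 targets and 8 of 20 early-response genes, with none of these lists' genes higher. Of 7650 genes outside the rule with a mean of at least 10 CPM, 449 were at least 1.5-fold higher (5.87%) and 354 at least 1.5-fold lower (4.63%), on the log2(CPM + 1) scale, with a median log2 ratio of -0.04 over all of them. Since the rule used this contrast, these counts and those of the lists are a description. The cells with the higher values also had the greater depth, and the part of that in each ratio was not tested beyond the settings given in the closing section.

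**Figure D2:**
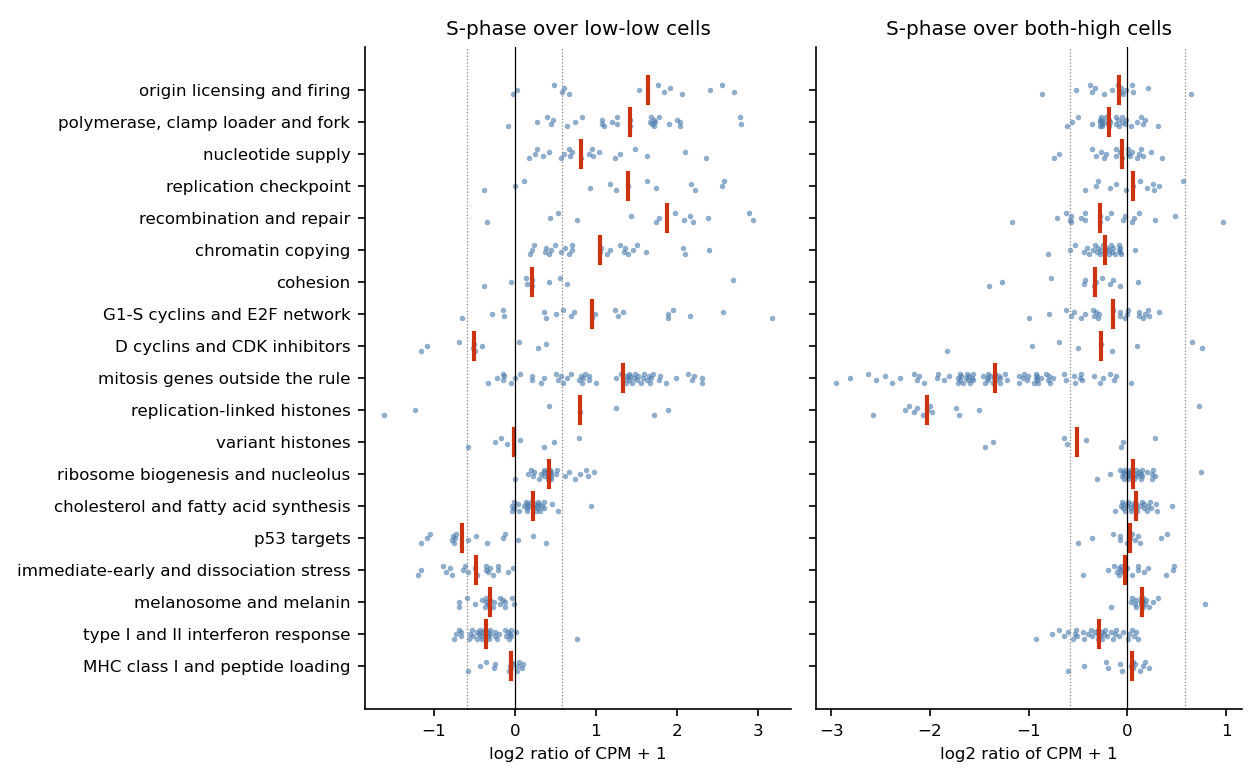
Log2 ratio of CPM + 1 for each measured gene (dot) of 19 fixed lists in S-phase cells over low-low cells (left) and over both-high cells (right); red bars are list medians, dotted lines 1.5-fold. The replication lists lie right of 0 on the left and near 0 on the right, while mitosis genes and replication-linked histones lie left of 0 on the right.

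Of 14 licensing genes measured, 10 were higher and none lower, with a median log2 ratio of 1.65 (all genes -0.04). With a minimum level of 20 CPM, which leaves 11 of these genes, the median was 0.67. Their sum was 968 CPM in S-phase cells and 382 in low-low cells, a ratio of 2.53 (2.42 to 2.65). Cdc6, the loader of the MCM helicase, was at 54.9 against 7.58 CPM, 7.24-fold higher (5.63 to 9.33). Cdt1, its partner in loading, was 4.33-fold higher (3.68 to 5.08) and Gmnn, the inhibitor of CDT1, 3.83-fold higher (3.37 to 4.35). Mcm10, which helps to activate the helicase, was 6.58-fold higher (5.07 to 8.57), and Cdc45, part of the active helicase, 6.25-fold higher at 28.2 against 4.51 CPM. These 5 were all past 1.5-fold, while 4 of the 14 were neither higher nor lower.

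Of 29 polymerase, clamp loader and fork genes, 24 were higher and none lower, with a median log2 ratio of 1.43. Pclaf, which encodes a protein that binds the PCNA clamp, was at 402 against 57.7 CPM, 6.96-fold higher (6.36 to 7.62). S-phase cells held it at 404 CPM (WT lung), 339 (Prf1-/- lung), 349 (Prf1-/- bone), 287 in cells with mixed hashtags and 429 in cells not listed in the hashtag matrix, against 28.1 to 68.9 CPM in the low-low cells of the same groups. All 5 groups of S-phase cells thus lay above all 5 groups of low-low cells. Dscc1, part of the loader that puts PCNA on DNA for cohesion, was 7.58-fold higher (6.02 to 9.57). Pold1, the catalytic subunit of polymerase delta, was at 56.7 against 13 CPM and Rpa2, which coats single-stranded DNA, at 84.5 against 19.9 CPM. Top1, which relaxes DNA in all phases, was at 222 and 235 CPM.

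Of 21 genes of nucleotide supply, 15 were higher and none lower, with a median of 0.81. Tk1, the thymidine kinase of dividing cells, was 5.34-fold higher (4.54 to 6.27). Dut, which keeps uracil out of DNA, was at 302 against 107 CPM. Nme1, a nucleoside diphosphate kinase with other roles, differed little, at 1.21-fold. Tk1 and Dut, which serve DNA precursors, thus stood further from low-low cells than Nme1 did.

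Of 13 replication checkpoint genes, 10 were higher and none lower (median 1.40), and of 14 recombination and repair genes, 11 were higher and none lower (median 1.88). Chek1, the kinase that restrains origins and mitosis when forks stall, was 6.40-fold higher (5.25 to 7.82), and Clspn, the adaptor through which it is activated, 6.26-fold higher (5.13 to 7.64). Among S-phase cells Chek1 stood at 71.2 CPM (WT lung) and 89.6 CPM (Prf1-/- lung) but rested on 2 UMIs in Prf1-/- bone (12.1 CPM, against 15.7 in low-low cells of that group), so its direction there is not known at this depth. Exo1, a nuclease of mismatch repair and end resection, was 8.96-fold higher (6.45 to 12.5). Rad51ap1, a DNA-binding protein of homologous recombination, was 8.18-fold higher (6.85 to 9.78), with levels of 60.8 to 135 CPM over the 5 groups of S-phase cells and 10.2 to 15.9 CPM over the low-low cells of those groups. Ung, which removes uracil from DNA, was 4.76-fold higher (3.81 to 5.95). Brca1 did not follow, at 68.4 against 87.2 CPM (0.785, 0.671 to 0.914), while its partner Bard1 was at 18.5 against 2.73 CPM.

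Of 27 genes of chromatin copying, 18 were higher and none lower (median 1.06). They included Asf1b, a histone chaperone, at 5.70-fold (4.5 to 7.22), and Chaf1a and Chaf1b, of the CAF-1 complex that places histones behind the fork, at 4.48-fold and 4.44-fold. Of 10 cohesion genes only 2 were past 1.5-fold, Esco2 at 24.9 against 3.01 CPM and Pds5b at 49.5 against 31.4 CPM. Esco2 acetylates cohesin as forks pass. The ring subunit Smc3 was at 235 against 159 CPM and Rad21, another ring subunit, at 1.10-fold with an interval that held 1 (0.933 to 1.29).

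Of 21 genes of G1-S cyclins and the E2F network, 14 were higher and 1 lower (median 0.96). Fbxo5 (EMI1), which holds back the anaphase-promoting complex so that S phase can run, had the most extreme ratio of the genes named, at 57.7 against 5.53 CPM, 10.4-fold (7.94 to 13.8). S-phase cells held it at 42.2 CPM (WT lung), 51.9 (Prf1-/- lung), 36.2 (bone) and 68.5 (unlisted), with 0 UMIs in the 26 S-phase cells of mixed hashtags, and at 1.89 to 7.31 CPM in low-low cells. Ccne2 and Ccne1, the E cyclins that drive entry into S phase, were 7.23-fold (5.08 to 10.4) and 4.08-fold (3.28 to 5.06) higher. E2f1 was 4.73-fold higher (3.87 to 5.77). Cdk2, the kinase partner of the E cyclins, was at 132 and 146 CPM (0.900, 0.804 to 1.01), so the cyclins differed and the kinase transcript hardly did.

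Of 10 D cyclins and CDK inhibitors, none was higher and 3 were lower (median -0.50). Cdkn1a, which encodes the CDK inhibitor p21, was at 80.5 against 172 CPM (0.468, 0.406 to 0.536), Cdkn1b, which encodes p27, at 81.6 against 133 CPM (0.615, 0.534 to 0.706), and Btg2, an antiproliferative gene, at 7.13 against 17.2 CPM (0.414, 0.249 to 0.653). By group, S-phase and low-low cells held Cdkn1a at 52.8 and 194 CPM (WT lung), 116 and 207 (Prf1-/- lung), 30.1 and 50.6 (bone), and 84.2 and 165 (unlisted). The S-phase level was the lower one in each of these, but in bone it rested on 5 UMIs and the interval of the ratio held 1 (0.596, 0.180 to 1.56). The summed list was below the low-low level in both lung groups, at 0.846 (0.766 to 0.932) and 0.841 (0.769 to 0.918), but not in bone, at 1.12 (0.943 to 1.32). The D cyclins did not move as 1 group: Ccnd1 was at 1.22-fold, Ccnd3 at 1.31-fold and Ccnd2 at 0.710 of the low-low level, none past 1.5-fold. Of 16 p53 targets, none was higher and 8 were lower (median -0.65). Cdkn1a and Btg2 are in that list too, and others were Phlda3 at 0.602 and Trp53inp1 at 0.454 of the low-low level.

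The M genes of the rule summed to at most 3 UMIs in both classes, but their levels were not equal. The median M sum was 1 in S-phase and 0 in low-low cells. The M genes ran from Top2a, at 127 against 34.3 CPM, to Ube2c, at 24.9 against 23.5 CPM. Of 57 measured mitosis genes outside the rule, 42 were higher and none lower (median 1.34). The list summed to 6893 against 4164 CPM (1.66, 1.63 to 1.68). The further ones were Aurkb, the kinase of the chromosomal passenger complex, at 5.65-fold (4.16 to 7.68), Ncaph and Ncapg2, condensin subunits, at 5.67-fold and 5.09-fold, and Sgo2a, a guardian of centromeric cohesion, at 5.52-fold (4.18 to 7.31). The most abundant ones were nearer to 1, with Hmgb1 at 1.44-fold and Ran at 1.51-fold. Among late mitotic transcripts, 3 were level with low-low cells: Ccnb2 at 38.1 and 38 CPM, Cdc20 at 15.7 and 15 CPM, and Cenpa at 33.9 and 34.9 CPM. These 3 were chosen after their values were seen and do not stand for late mitotic transcripts as a whole.

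Replication-linked histone genes, whose mRNAs mostly end in a stem-loop and not in poly(A), are caught poorly by poly(A) priming, and only 7 of 62 listed reached the minimum. Their coding sequences are near-identical, so reads could be split between copies. In this list 4 were higher and 2 lower, and the sums were 414 and 402 CPM (1.03, 0.965 to 1.10). Hist1h2ae was 3.99-fold higher (3.08 to 5.14) and Hist1h3c 3.71-fold higher (2.61 to 5.24). Hist1h2bc was at 58.8 against 182 CPM (0.324, 0.275 to 0.379) and Hist1h1c at 24.6 against 59.2 CPM (0.415, 0.320 to 0.531). Hist1h2bc alone held 182 of the 402 CPM in low-low cells and 58.8 of the 414 CPM in S-phase cells. The summed ratio thus joins genes that ran in opposite directions and is not a level shared by the list. The sum ran differently by group: the ratio to low-low cells was 1.16 for unlisted cells (1.07 to 1.25), 1.09 for bone (0.793 to 1.47), 0.943 for Prf1-/- lung (0.794 to 1.11) and 0.658 for WT lung (0.534 to 0.804). H2afz, a replication-independent histone variant, was 1.73-fold higher (1.67 to 1.78) in all cells together.

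Beyond the cell cycle, all 30 genes of ribosome biogenesis and the nucleolus lay above 1, 7 of them past 1.5-fold and none lower (median 0.43). Nop56 and Nop58, of the particle that methylates ribosomal RNA, were 1.98-fold and 1.76-fold higher, and Ncl (nucleolin) 1.59-fold. Immediate-early and dissociation stress genes ran the other way, with 8 of 20 lower and none higher (median -0.48), among them Egr1 at 0.537, Klf2 at 0.551 and Zfp36 at 0.406 of the low-low level. Of 19 melanosome and melanin genes 3 were lower (Myo5a, Rab27a and Ap1s2, at 0.616, 0.659 and 0.614) and none higher, and all 19 ratios were below 1 (median -0.31). Mitf, the lineage factor of melanocytes, was at 375 and 485 CPM. Of 36 interferon-response genes, 5 were lower and 1, the chemokine Cxcl10, was higher at 354 against 207 CPM (1.71, 1.59 to 1.84). None of 47 nuclear genes of oxidative phosphorylation and none of 18 glycolysis genes was past 1.5-fold, with medians of -0.07 and 0.04. Mitochondrial UMIs made up a median of 2.05% of S-phase cells and 2.46% of low-low cells.

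The genes with the most extreme ratios are of both sorts. A naming rule asked for an interval that lies past 1.5-fold as a whole, for 50 or more UMIs, and for a mean level of 20 CPM or more. It was met by 166 higher and 33 lower genes of 5428. Among its 15 higher genes not yet named were Aunip, at 45.6 against 4.71 CPM (9.68-fold, 7.17 to 13.2), Brip1, a helicase of the Fanconi pathway, at 36.0 against 6.69 CPM, and Slfn9, a Schlafen family gene, at 79.1 against 15.3 CPM. Among its 15 lower genes were Kdm5b, a histone demethylase, at 0.306 (0.211 to 0.430), Abca1, the cholesterol exporter, at 0.329 (0.255 to 0.418), Mxd4, a MAX partner that opposes MYC, at 0.333 (0.269 to 0.409), Kcnj13, a potassium channel, at 0.374 (0.311 to 0.446), and Nupr1, a stress-induced chromatin protein, at 0.449 (0.382 to 0.525). Sftpc, the lung surfactant gene, was lower too, but 1 low-low cell held 39.2% of its UMIs there. All 15 higher genes were above 1 in both lung groups and in unlisted cells, and 14 of 15 were in bone. All 15 lower genes were below 1 in the first 3 of these groups and 13 of 15 in bone. In cells of mixed hashtags, 13 of 15 higher genes were above 1 and 14 of 15 lower genes were below 1. The 15 genes per side were picked on their ratio over all these cells pooled. Their direction by group is thus a description and not a separate check.

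Against both-high cells, which also carry the M genes, S-phase cells had lower levels of most mitosis and histone transcripts, while few genes of the replication lists were past 1.5-fold. Of 7614 measured genes, 85 were at least 1.5-fold higher (1.12%) and 241 lower (3.17%), with a median log2 ratio of -0.00. Of 76 mitosis genes outside the rule, none was higher and 64 were lower (median -1.34). Plk1, the polo-like kinase of mitotic entry, was at 9.98 against 66.7 CPM (0.150, 0.0979 to 0.220) and Aspm, a spindle pole gene, at 6.42 against 51.1 CPM (0.126, 0.0732 to 0.203). The M sum defines both-high cells, so the direction of this list is a description of the rule.

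Of 13 replication-linked histone genes, 12 were lower and 1 higher (median -2.03), and the list summed to 414 against 1553 CPM (0.266, 0.250 to 0.283). Hist1h3c was at 21.0 against 131 CPM, Hist1h4d at 41.0 against 194 CPM and Hist1h2ae at 39.2 against 176 CPM. Variant histones had 4 of 8 lower and none higher, with H1f0, a linker histone, at 0.386 (0.333 to 0.446) and H3f3b, an H3.3 gene, at 0.639 (0.615 to 0.663). Of 31 polymerase and fork genes only Pclaf was past 1.5-fold, at 402 against 613 CPM (0.655, 0.612 to 0.702), and of 13 checkpoint genes none was. Of 21 nucleotide supply genes 2 were lower, of 27 chromatin copying genes 1, and of 25 genes of the G1-S and E2F list 3, with none higher. Recombination and repair had 4 of 21 lower and 1 higher (median -0.28), and cohesion 3 of 12 lower and none higher (median -0.33). Esco2 and Fbxo5, high in S-phase cells against low-low cells, were higher still in both-high cells, at 0.370 (0.281 to 0.480) and 0.498 (0.416 to 0.594) in S-phase over both-high cells.

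Few genes were higher in S-phase than in both-high cells. The naming rule gave 4: Ung at 55.6 against 28.0 CPM (1.99, 1.57 to 2.52), Ccnd2 at 431 against 254 CPM (1.70, 1.57 to 1.84), Cck, the gene of the peptide hormone cholecystokinin, at 857 against 474 CPM (1.81, 1.71 to 1.91), and Tmem150a at 28.5 against 13 CPM (2.20, 1.56 to 3.10). The Cck ratio joins groups whose summed levels ran in opposite directions. Cck was lower than in both-high cells in WT lung (71.2 against 139 CPM) and Prf1-/- lung (91.9 against 241 CPM), and higher in bone (2880 against 2020), mixed (2927 against 295) and unlisted cells (886 against 480). Few cells were rich in it. In bone, 12 of 45 S-phase and 15 of 73 both-high cells held at least 10 Cck UMIs (26.7% and 20.5%, with overlapping intervals). The numbers were 1 of 106 and 1 of 193 in WT lung, and 1 of 119 and 3 of 192 in Prf1-/- lung. Whether the directions hold beyond such cells was not tested. Cdc6 was at 54.9 against 34.7 CPM (1.58, 1.27 to 1.98), Ccnd1 at 1.57-fold (1.43 to 1.73) and Mc1r, the melanocortin receptor, at 1.74-fold (1.45 to 2.09). Dbf4, which activates the CDC7 kinase for origin firing, was lower at 0.545 (0.446 to 0.664). Cdkn1a was at 80.5 against 115 CPM (0.702, 0.599 to 0.821), so it was lower in S-phase cells than in low-low and in both-high cells, though short of 1.5-fold in the latter. The median cell of this class had fewer UMIs than the median both-high cell, 2996 against 3610, and 8.78% of its listed cells had mixed hashtags (5.82 to 12.6), against 10.9% of both-high and 5.95% of low-low cells.

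The S-phase cells below are grouped by sums that the rule used, so the direction of cell cycle genes across the groups is a description. Split by their M sum into 201, 248, 227 and 219 cells with 0, 1, 2 and 3 M UMIs, with median depths of 2831 to 3102 UMIs, the mitosis genes outside the rule summed to 5603, 6545, 7086 and 8151 CPM, a ratio of 1.45 between the ends (1.39 to 1.52). Replication-linked histones summed to 230, 331, 479 and 590 CPM, a ratio of 2.56 (2.11 to 3.13). Both sums were higher at each step, as was the median depth, whose part in these values was not tested. The polymerase and fork list was at 2544, 2923, 2953 and 3353 CPM (1.32, 1.24 to 1.41), and the licensing list at 884, 1003, 915 and 1054 CPM (1.19, 1.07 to 1.34), which has no order in the middle. The interferon list did not differ between the ends beyond counting error, at 0.996 (0.943 to 1.05), nor did the p53 list, at 1.01 (0.904 to 1.12).

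Single genes ran with these lists. Pclaf was at 255, 378, 435 and 515 CPM (2.02, 1.67 to 2.45) and Fbxo5 at 33.4, 44.8, 54.2 and 95.7 CPM (2.87, 1.72 to 4.99). Hist1h2ae was at 5.01, 30.3, 52.9 and 63.4 CPM (12.7, 4.06 to 63.7). Cdc6 and Chek1 were level within counting error, at ratios of 1.12 (0.683 to 1.84) and 1.12 (0.728 to 1.73). Ccnd2 went down, at 514, 438, 431 and 353 CPM (0.688, 0.580 to 0.815), as did Ahnak2, from 137 to 66.2 CPM (0.484, 0.330 to 0.701). Erythroid genes also differed, since the 2 cells that held most of them had an M sum of 3.

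**Figure D3:**
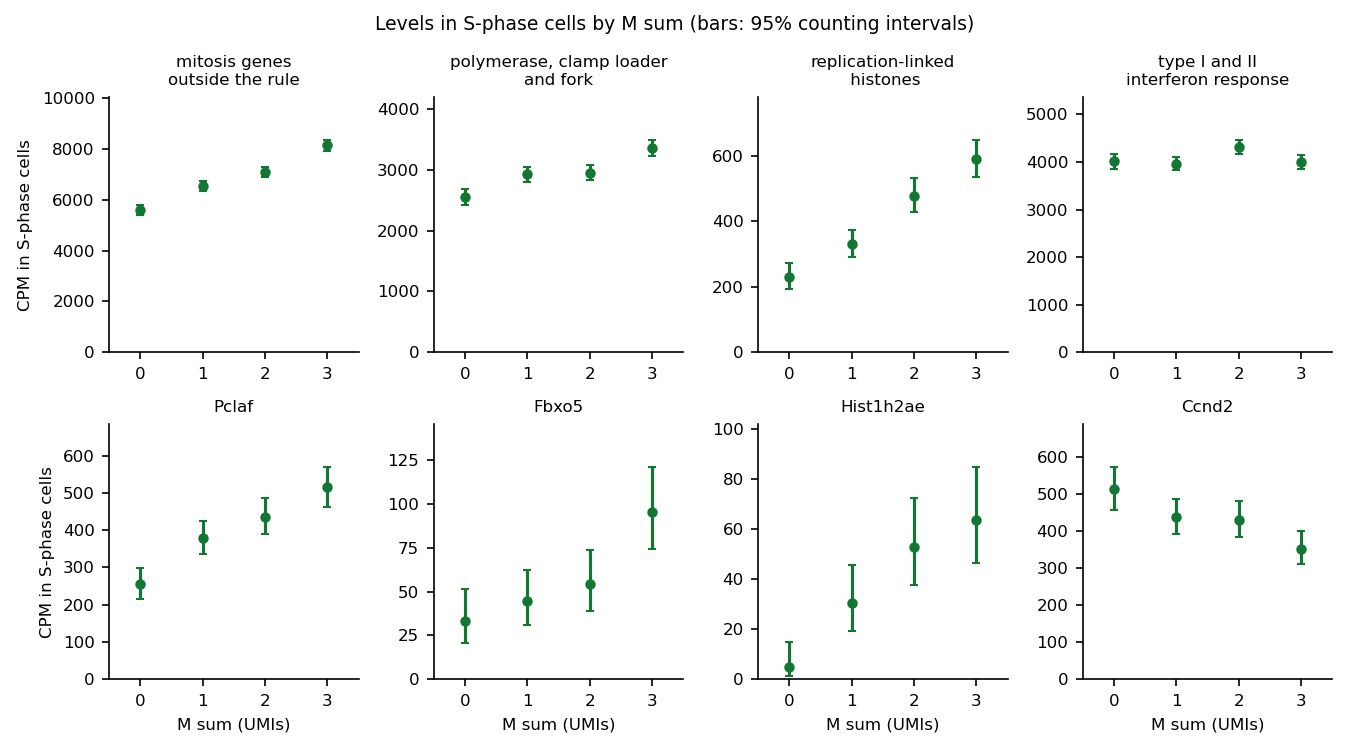
Levels in S-phase cells (CPM, vertical, from 0) by M sum (0 to 3 UMIs, horizontal) for 4 lists and 4 genes, with 95% Poisson intervals as bars. Mitosis genes, histones, Pclaf, Fbxo5 and Hist1h2ae climb with the M sum, the interferon list ends where it began and Ccnd2 descends.

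Split by S sum into 5 to 6 (396 cells), 7 to 9 (342), 10 to 14 (140) and 15 or more (17), the polymerase and fork list was at 2710, 3109, 3137 and 3604 CPM. Histones were at 344, 442, 478 and 709 CPM. The interferon list was at 4353, 4083, 3413 and 3830 CPM, with no single direction. The top range holds only 17 cells with a median of 4017 UMIs, against 2787 in the lowest range, so depth moves with the S sum. Its part in these values was not tested.

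By hashtag (the largest count at least 2 times the second), 106 of 1227 WT lung cells were S-phase cells by the rule (8.64%, 7.13 to 10.4), 119 of 1520 Prf1-/- lung cells (7.83%, 6.53 to 9.30) and 45 of 385 Prf1-/- bone cells (11.7%, 8.65 to 15.3). Both-high cells, whose S sum is also past its limit, are not counted in these shares. Mixed hashtags were on 242 cells, 26 of them S-phase cells (10.7%), and 6270 cells were unlisted, with no entry in the hashtag matrix, 599 of them S-phase cells (9.55%, 8.84 to 10.3). For the shares of S-phase cells, the intervals of WT and Prf1-/- lung overlap, and that of bone overlaps both. Most S-phase cells (599 of 895) thus have no source. Thinned to 2000 UMIs per cell, with the sums scaled to at least 3 and at most 2, the shares were 13.4%, 12.3% and 17.5% for WT lung, Prf1-/- lung and Prf1-/- bone, in the same order. Over all filtered cells, the 12 S genes, which the rule used, summed to 906, 830 and 1082 UMIs per 1000000 UMIs in these groups, given as a description. Of cells with an S sum of at least 5, 35.5% (WT lung), 38.3% (Prf1-/- lung) and 38.1% (bone) had the low M sum of S-phase cells. Median depths of the 3 groups were 2909, 2826.5 and 3107 UMIs per filtered cell. Each is 1 hashtag, so the spread between animals is not known.

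**Figure D4:**
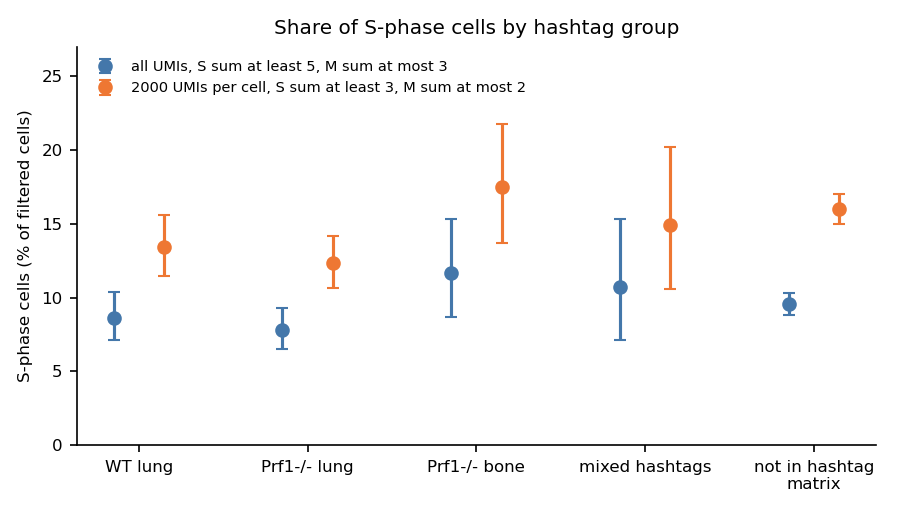
Percentage of filtered cells in each hashtag group that were S-phase cells with all UMIs (blue), or that met the scaled sums after thinning to 2000 UMIs per cell (orange). Bars are 95% exact binomial intervals. Prf1-/- bone has the highest point in both, 11.7% and 17.5%, with wide intervals.

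Within S-phase cells, interferon-response genes stood lower in Prf1-/- lung than in WT lung, and the summed polymerase and fork genes did not differ beyond counting error. Of 7480 measured genes, 947 were at least 1.5-fold higher in Prf1-/- lung (12.7%) and 1108 lower (14.8%), with a median log2 ratio of -0.01, over 119 and 106 cells. Of 34 interferon genes, none was higher and 23 were lower (median -0.75), and the list summed to 3546 against 5104 CPM (0.695, 0.649 to 0.744). Cxcl10, which attracts T cells, was at 321 against 512 CPM (0.627, 0.499 to 0.784), and Ifi27 at 646 against 886 CPM (0.729, 0.619 to 0.857). Low-low cells had the same order, at 4293 and 5614 CPM for the list in Prf1-/- and WT lung. Of 17 genes of MHC class I and peptide loading 6 were lower and 1 higher (median -0.34). They included Psme1 and Psme2, the proteasome activator, at 0.536 (0.362 to 0.786) and 0.547 (0.361 to 0.819), while B2m, the light chain of class I, was at 0.802 (0.685 to 0.939).

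Of 31 polymerase and fork genes, 5 were higher and 6 lower (median 0.05), and of 57 mitosis genes, 4 were higher and 11 lower (median 0.05), with summed ratios of 0.970 (0.893 to 1.05) and 0.986 (0.934 to 1.04). Both intervals hold 1, but the rule chose the cells of both sources by related genes, so this is a description. Cdkn1a was at 116 CPM in Prf1-/- lung against 52.8 in WT lung (2.19, 1.28 to 3.89), with 22.4% of its Prf1-/- lung UMIs in 1 cell. Only Lgals3 and Blvra met the naming rule, both lower. Lgals3 (galectin-3) was at 21.2 against 150 CPM (0.141, 0.0614 to 0.287), with 8 of its 9 UMIs in Prf1-/- lung and 15 of its 57 in WT lung from 1 cell each. Blvra (biliverdin reductase) was at 33.0 against 103 CPM (0.321, 0.161 to 0.604).

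In S-phase cells from Prf1-/- bone against those from Prf1-/- lung, antigen presentation genes and Cck stood higher. Both comparisons share the Prf1-/- lung cells, so they are not independent. Of 7570 measured genes, 1386 were at least 1.5-fold higher in bone (18.3%) and 1498 lower (19.8%), with a median of 0.03, over 45 and 119 cells. In bone, 3 UMIs were 18.1 CPM, above the minimum mean of 10 CPM, so such a call can rest on a few UMIs. These counts are thus not numbers of genes that differ beyond counting error. Only Cck, Psmb8, Tmsb4x, Cdkn1a, Phlda1 and Mlana met the naming rule. Of 18 class I and peptide loading genes, 11 were higher and none lower (median 0.66), and the list summed to 5519 against 3963 CPM (1.39, 1.28 to 1.51). Psmb8 and Psmb9, subunits of the immunoproteasome, were at 253 against 73.1 CPM (3.46, 2.13 to 5.70) and 127 against 25.9 CPM (4.88, 2.25 to 11.2). WT lung lay between for both, at 129 and 42.2 CPM. The class II list was at 175 against 23.6 CPM, from 29 and 10 UMIs (7.41, 3.51 to 17.0), and low-low cells had the same order, at 261 and 45.0 CPM. The interferon list had 14 of 33 genes higher and 3 lower (median 0.35, and 1.04 with the 2 sums taken per 10000 UMIs), with a summed ratio of 1.14 (1.03 to 1.24).

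Pigment genes were at 0.813 in sum (0.774 to 0.853), with 5 of 19 lower and 1 higher, beside 19.8% lower and 18.3% higher over all measured genes. The share of lower pigment genes is near that of all genes, so the count says nothing particular about the list. Mlana, a melanosome protein, was at 1163 CPM in Prf1-/- bone, 2143 in Prf1-/- lung and 2205 in WT lung (bone over Prf1-/- lung 0.543, 0.462 to 0.635). Cdkn1a was at 30.1 against 116 CPM (0.261, 0.0811 to 0.651), from 5 and 49 UMIs, and Phlda1 at 199 against 474 CPM (0.420, 0.281 to 0.609). A single cell held 40% of the Cdkn1a UMIs in bone, and another 22.4% of those in Prf1-/- lung. Without these cells the Cdkn1a ratio was 0.203 (0.0401 to 0.640). Tmsb4x, which binds actin monomers, was at 566 against 257 CPM (2.20, 1.65 to 2.93). Of 31 polymerase and fork genes, 3 were higher and 2 lower (1.03 in sum, 0.925 to 1.15), and of 61 mitosis genes 9 were higher and 17 lower (1.04, 0.973 to 1.12). In summed level, replication transcripts differed less between sources than antigen presentation genes did. All these cells met the same limits on the S and M sums, so the selection could hold replication and mitosis levels alike in advance. The contrast is a description of the chosen cells.

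Cck stood at 2880 CPM in S-phase cells from Prf1-/- bone, 91.9 in those from Prf1-/- lung and 71.2 in those from WT lung (bone over Prf1-/- lung 31.3, 22.6 to 44.6), and at 886 CPM in unlisted ones. A single cell held 23.4% of its UMIs in bone, and another 33.3% of those in Prf1-/- lung. Without these cells the ratio was 36.8 (24.7 to 57.1). Few cells carried it: 12 of 45 S-phase cells from bone held at least 10 Cck UMIs (26.7%, 14.6 to 41.9), against 1 of 119 from Prf1-/- lung and 1 of 106 from WT lung. In bone, 58 of 203 low-low cells did (28.6%), so the share among S-phase cells was within counting error of that among low-low cells. On the CPM scale Cck was nevertheless at 0.649 of the low-low level in bone, and also below it in both lung groups (91.9 against 364 and 71.2 against 229 CPM), but above it in unlisted cells (886 against 767 CPM). The ratio over all cells, 857 against 761 CPM, joins groups that run in opposite directions. Prf1 itself had 0 UMIs in S-phase cells, which does not check the host genotype, since melanoma cells are not its source.

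**Figure D5:**
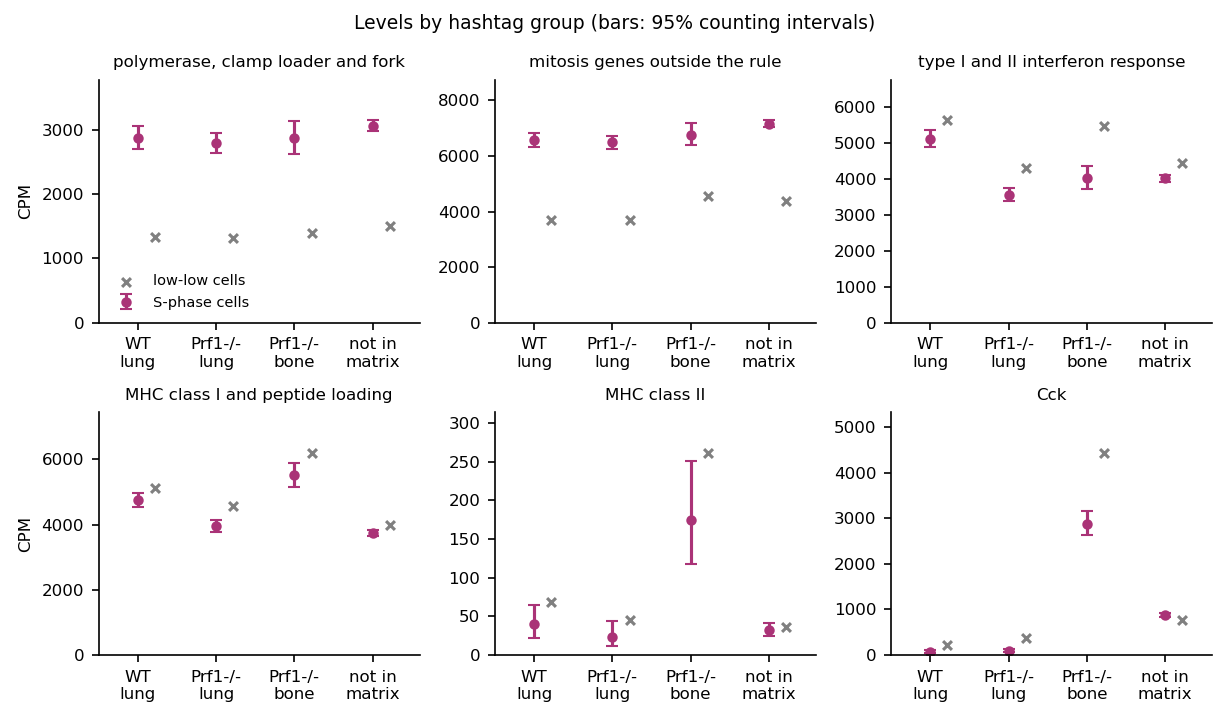
Summed level of 5 lists and level of Cck (CPM, from 0) in S-phase cells of each source and in cells not listed in the hashtag matrix (points with 95% Poisson intervals), beside low-low cells of the same group (crosses). Polymerase and fork levels and mitosis levels are alike across sources in S-phase cells, which the rule chose by related genes. Among S-phase cells the interferon list is highest in WT lung, and Cck and both MHC lists are highest in Prf1-/- bone.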

How the data were processed

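The deposited RNA and hashtag matrices hold UMI counts per barcode, made by the authors with Cell Ranger (6.0.0 per the file headers, 6.1.2 per the submitters' processing notes, which also name Seurat 4.3.0 and mm10). The hashtag matrix lists 6208 barcodes, 4204 of them shared with the RNA matrix, and no total under 503. Filtered cells had 1430 to 11974 UMIs. Sums of counts over cells were divided by all UMIs outside the 22 rule genes and compared as log2(CPM + 1), with exact Poisson, Clopper-Pearson or conditional binomial 95% intervals (Python 3.11.15, scipy 1.17.1). With 1 hashtag per condition no test was run. Named genes were up to 15 per side by the naming rule, plus up to 4 abundant and 4 extreme measured members of each list. The cells, lists and rules were chosen with earlier results of these data known. No doublet caller was run; mixed hashtags and a setting without the 5% of barcodes with the most UMIs stand in for one. The ratio step was tested on simulated data. Promoters are matched to RefSeq by symbol. Values of some single genes in the lists are not reported here.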

Additional observations from a re-analysis of the deposited data

Results flagged for a closer look

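Of 28 gene lists compared across the 3 sources, 1 had S-phase cells on opposite sides of low-low cells with intervals that left out 1 on both sides. Other lists crossed 1 between sources only with an interval that held 1 on at least 1 side. The glycolysis list was higher in S-phase cells from WT lung, at 12012 against 10538 CPM (1.14, 1.10 to 1.18), and from Prf1-/- lung, at 12226 against 11244 CPM (1.087, 1.06 to 1.12), and lower in those from Prf1-/- bone, at 11948 against 13520 CPM (0.8837, 0.841 to 0.928). The intervals do not hold 1 in any of the 3 sources and cover counting error only. Each source is 1 hashtag, and the difference between sources was not tested. The levels in S-phase cells were close to one another, and those of low-low cells were spread more widely.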

How the results depend on the processing

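Every setting below changes 1 choice. No paired analysis was possible because each condition is 1 hashtag with no replicate number. Replicates could not be left out. Only 45 S-phase cells came from bone, and genes with few UMIs there (Chek1, Cdkn1a) had no direction against low-low cells beyond counting error. Settings for the comparison with both-high cells and for the split by M sum were added after seeing the data. The main shares, counts and list values were each compared with their value under each setting. Of these comparisons, 166 stayed within a tolerance and 78 moved, without a change of sign. The tolerance was 1.5 times for a count and came from the counting interval for a share. For a list value it came from the counting interval of the list's summed ratio, since a median has no interval here. Small shifts of a median can thus count as moved. The causes were not tested.

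The share of S-phase cells (9.28%) became 3.712% with an S sum of at least 8, 4.656% with an M sum of at most 1, 14.39% with at least 1500 genes and 10.19% at 2000 to 4000 UMIs. With the first 3 of these it became 3.83%, 3.83% and 15.5% in WT lung and 3.026%, 4.211% and 12.86% in Prf1-/- lung, and with the first 2, 5.714% and 5.974% in Prf1-/- bone.

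Against low-low cells, the 449 higher genes became 961 with no minimum level. The 354 lower genes became 536 with an M sum of at most 1, 187 with a pseudocount of 5, 1326 with no minimum and 172 with a minimum of 20 CPM. The polymerase and fork median (log2 1.43) became 1.331 with an S sum of at least 8, 1.483 with an M sum of at most 1, 1.281 with at least 1500 genes, 1.532 in listed and 1.384 in unlisted barcodes, 1.49 without the deepest 5%, 1.494 with each cell weighted equally, 1.466 with median-of-ratios scaling, 1.171 with a pseudocount of 5 and 1.256 with a minimum of 20 CPM. The mitosis median (1.34) became 1.107, 1.16 and 1.095 with the first 3 of those, 1.377 with sums per 10000 UMIs, 1.4 at 2000 to 4000 UMIs, 1.196 in unlisted barcodes, 1.381 without the deepest 5%, 1.376 with equal weights, 1.374 with median-of-ratios scaling, 0.9946 with a pseudocount of 5, 1.221 with no minimum and 0.828 with a minimum of 20 CPM. The licensing median (1.65) ranged from 0.6701, with a minimum of 20 CPM, to 1.835.

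Against both-high cells, the 85 higher genes became 234 with an S sum of at least 8, 160 with an M sum of at most 1, 196 with at least 1500 genes, 160 at 2000 to 4000 UMIs, 291 in listed and 173 in unlisted barcodes, 36 with a pseudocount of 5, 736 with no minimum and 29 with a minimum of 20 CPM. The 241 lower genes became 364 with an S sum of at least 8, 383 at 2000 to 4000 UMIs, 477 in listed barcodes, 989 with no minimum and 140 with a minimum of 20 CPM. The polymerase median (-0.19) became -0.2384 with at least 1500 genes, -0.1449 in listed and -0.1407 in unlisted barcodes. The mitosis median (-1.34) became -1.052 with an S sum of at least 8, -1.397 with an M sum of at most 1, -1.388 with at least 1500 genes, -1.198 with sums per 10000 UMIs, -1.312 at 2000 to 4000 UMIs, -1.396 in listed and -1.253 in unlisted barcodes, -1.302 with equal weights, -1.197 with a pseudocount of 5 and -1.26 with a minimum of 20 CPM.

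Between Prf1-/- and WT lung, the 947 higher genes became 1554 with an S sum of at least 8, 2575 with no minimum and 474 with a minimum of 20 CPM, and the 1108 lower ones 2643 and 636 with the last 2. Between Prf1-/- bone and lung, the 1386 higher genes became 2622 and 869 and the 1498 lower ones 3462 and 833 with those 2. In the split by M sum, the log2 ratio of mitosis genes (0.54) became 0.4617 in listed barcodes, and that of histones (1.36) 0.9448 with at least 1500 genes and 0.7864 in listed barcodes.

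Other lists and genes changed sign 69 times, 62 of them from a log2 value under 0.1 in size, such as the polymerase and mitosis medians between sources. The other 7 started at 0.1 or more. The melanosome median between Prf1-/- and WT lung (-0.14) became 0.01052 with an S sum of at least 8, 0.03807 with an M sum of at most 1 and 0.001768 with sums per 10000 UMIs. The ATF4 median against low-low cells (-0.15) became 0.005116 with sums per 10000 UMIs. The MHC class II median against both-high cells (-0.19, 1 gene measured) became 0.06727 with that setting and 0.5599 at 2000 to 4000 UMIs. Sftpc against both-high cells (-2.47) became 0.5063 without the cell of each class that held most of it.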
